A study of Mus musculus with 8 samples.

Results

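The stretch of mouse chromosome 1 examined here holds Cd28, Ctla4 and Icos, the neighbouring genes for a family of costimulatory and inhibitory receptors of T cells. It ran from 50 kb before the Cd28 body to 50 kb past the Icos body, 60696388 to 61050322 in GRCm38/mm10, and its members were all ATAC-seq peaks overlapping that interval. They numbered 586 of the 835203 peaks that the authors deposited. Peaks of the 8 libraries that overlapped by at least 1 bp were merged, which gave 103 regions in the locus of 175276 regions genome-wide. ATAC-seq maps open chromatin by where a transposase can insert sequencing adapters into DNA.

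The cells were naive CD4 T cells sorted from mouse spleen, with Tet1 and Tet3 deleted (Tet1/3 cDKO) or from control mice. All were activated for 48 h with anti-CD3 at 0.25 µg/mL and anti-CD28 at 1 µg/mL, and all received TGF-β at 20 ng/mL, so every library comes from cells whose CD28 receptor had been engaged. The 4 groups were cDKO with 100 U IL-2, cDKO without added IL-2, control with 100 U IL-2 and control without added IL-2, with 2 libraries of 90000 cells each. The sources used here do not give the Cre driver, the deleted exons, the age of the mice or the animals behind each replicate, and peak lists cannot check the deletion.

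CD28 and CTLA-4 bind the same ligands, CD80 and CD86, on antigen-presenting cells. CD28 adds to the T cell receptor signal, whereas CTLA-4 binds the ligands more tightly and restrains the response. ICOS binds its own ligand, ICOSL, and is induced on activated T cells. CTLA-4 and ICOS are both abundant on regulatory T cells, the lineage that TGF-β and IL-2 favour in culture. TET enzymes oxidise 5-methylcytosine, a step in removing DNA methylation, and DNA methylation at regulatory elements often accompanies closed chromatin.

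The Ctla4 promoter is shown first because one of the regions below lies on it. Of the 3 genes, the RefSeq promoter table (GRCm38.p6) held Ctla4. Its 300 bp, 250 before and 50 after the gene start, lie at chr1:60908775-60909074 on the plus strand, with 42% G and C. The capitals mark an NFAT core, read on the minus strand as GGAAA, and the letters TATAAA of a TATA box. The TATAAA match begins 40 bp after the gene start used here, and nothing here shows that it serves that start.
Ctla4 promoter: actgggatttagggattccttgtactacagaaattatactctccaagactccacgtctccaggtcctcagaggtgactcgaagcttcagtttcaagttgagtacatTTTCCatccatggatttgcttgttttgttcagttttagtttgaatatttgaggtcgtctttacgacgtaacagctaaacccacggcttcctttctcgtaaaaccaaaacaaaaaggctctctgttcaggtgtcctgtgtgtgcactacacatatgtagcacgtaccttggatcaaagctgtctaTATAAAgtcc
Both strands were searched. The NFAT core GGAAA, bound by the calcium-regulated factors that act downstream of the T cell receptor, matched 1 time, and 61.3% of 32851 RefSeq promoters of this length hold it. The forkhead core TGTTT, of the kind bound by FOXP3 and FOXO1, matched 2 times and is in 50.5% of promoters. The TATA box letters TATAAA matched 1 time, after the gene start, and are in 13.6%. The AP-1 letters TGANTCA (7.81% of promoters) and the STAT letters TTCNNNGAA (8.30%) are not in this window. The window holds 8 CG dinucleotides, the sites that TET enzymes act on when methylated, against a median of 7 over all promoters. These matches describe letters in the reference and show no binding.

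The deposited lists differed in length, from 65811 peaks in control plus IL-2 replicate 2 to 145979 in control without IL-2 replicate 1, and read depth is not stated in them. To compare libraries, the strongest 65811 peaks of each list by the authors' −log10 p were kept, the equal-number list, and each region was given its rank in it. Rank 1 is the strongest peak of the library, so a smaller number means a stronger peak. A rank is a place among a library's own peaks and not an amount of open chromatin, and in these bulk libraries fewer cells with an open site cannot be told apart from less opening per cell. Of the regions in all 8 equal-number lists, the weakest rank came from control plus IL-2 replicate 2, the shortest list, in 22.5% of those in the locus and 20.3% genome-wide. Control without IL-2 replicate 1, the longest list, gave it in 20.0% and 18.0%, and cDKO without IL-2 replicate 1 in 20.0% of the locus and 9.78% genome-wide. Regions at the ends of 10 of 10 CD4 T cell marker genes were in all 8 equal-number lists, and those of Ms4a1, Lyz2 and Ncr1, which define B, myeloid and natural killer cells, were in none. Regions of CD8 T and natural killer cell markers were listed for 4, 4, 4 and 3 of 7 genes in cDKO libraries and for 3, 3, 2 and 3 in control libraries, so that count was slightly higher in cDKO. Its part in the genotype results below was not tested.

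Open regions of the locus often recurred across the libraries. Of its 103 regions, 40 were in all 8 equal-number lists, or 38.8%, against 23.2% of all regions. A further 31 were in no equal-number list and 17 were in 1 to 3, which left 55 regions, listed in 4 or more libraries, that entered the comparisons. The longest stretch, between Cd28 and Ctla4, held 44 regions with 25 compared. The Cd28 body held 13 with 5 compared, the Ctla4 body 4 with 4, and the Icos body 10 with 7. Before Cd28 there were 7 with 2 compared, between Ctla4 and Icos 13 with 4, and past Icos 12 with 8. Locus regions were also wider than regions in general, with a median of 320 bp against 250 bp. They were not stronger: the median rank of those compared was 32677, against 30664 genome-wide. The number of locus regions in the equal-number lists was 51 and 56 in cDKO plus IL-2, 49 and 54 in cDKO without IL-2, 56 and 53 in control plus IL-2, and 58 and 57 in control without IL-2. The means, 52.5 ± 3.11 in cDKO and 56.0 ± 2.16 in control (SD, n = 4 each), belong to overlapping ranges, and so do 54.0 ± 2.45 with IL-2 and 54.5 ± 4.04 without it (SD, n = 4 each).

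**Figure D1:**
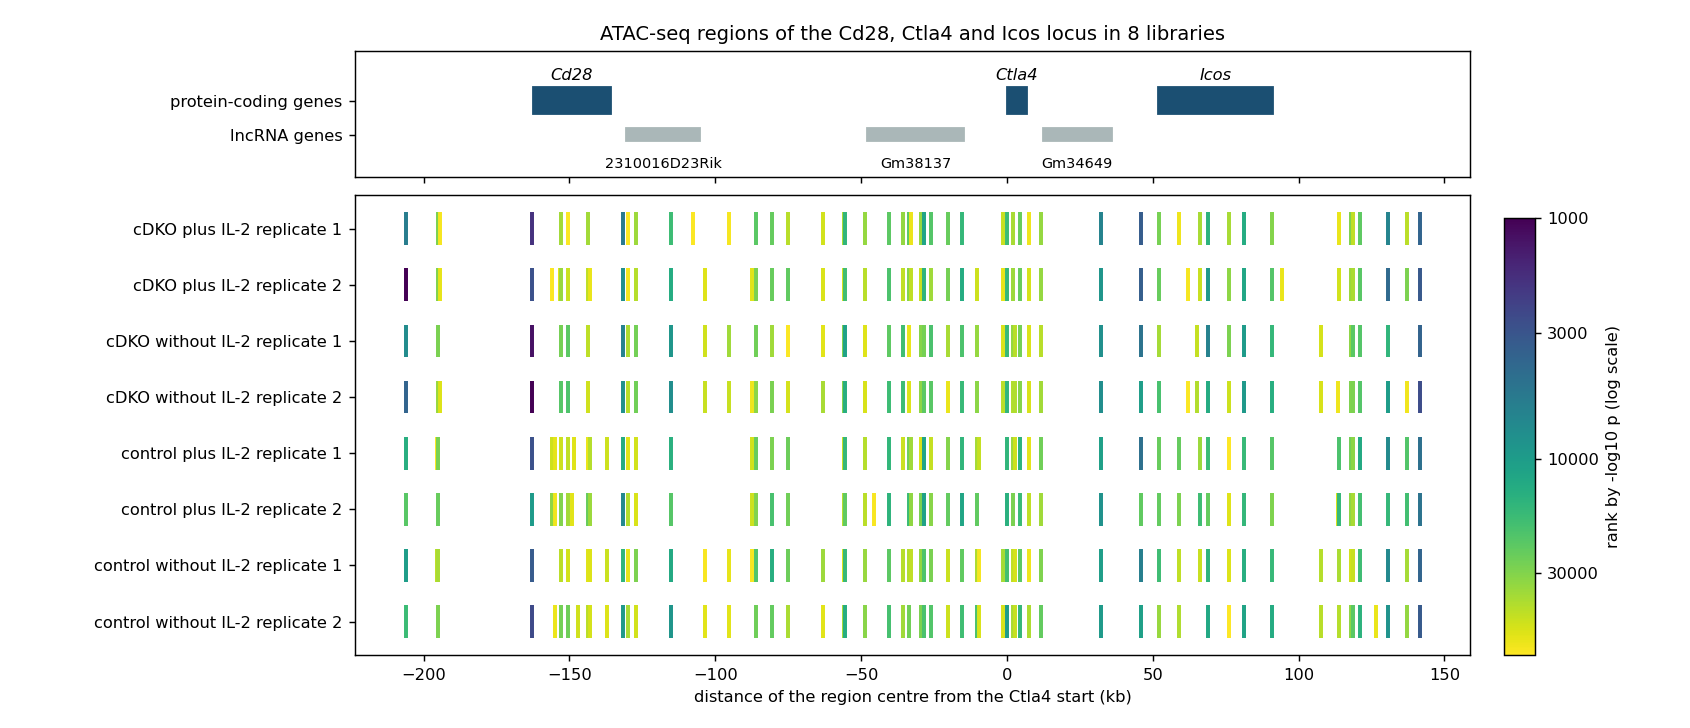
Map of the locus: the x axis gives the distance of each region's centre from the Ctla4 start in kb, the upper panel shows genes, and each row of the lower panel is a library with a bar for every region in its equal-number list, coloured by rank on a log scale. The bar at the lower-coordinate end of Cd28 ranks from 947 to 9829 and is lightest in control plus IL-2 replicate 2, and 40 regions recur in all rows.

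The strongest region of the locus lay at the lower-coordinate end of Cd28 (60745838 to 60746542), the end of the gene body at 60746388. It ranked 1804 and 2818 in cDKO plus IL-2, 1200 and 947 in cDKO without IL-2, 2836 and 9829 in control plus IL-2, and 3294 and 2546 in control without IL-2. The cDKO libraries were ahead of the control libraries within each culture condition, and the groups overlapped over the 8 libraries. As a difference of mean log2 rank, written here so that a positive value means ranked ahead in cDKO, this was 1.33 (SE 0.57, n = 4 each), with an exact two-sided permutation p of 0.0571 and an adjusted p of 0.271 (Benjamini-Hochberg over the 64597 regions compared genome-wide). Between cultures with and without IL-2 the difference was −0.97 (SE 0.68, n = 4 each; exact permutation p = 0.343, adjusted p = 0.854). The 8 peak summits lay within 40 bp of each other. The authors' fold enrichment there was between 9.69 and 16.6.

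Inside the Cd28 body the regions were weaker than at its end. The one at 60755873 to 60756181 ranked from 21991 to 36801 in cDKO and from 26937 to 47967 in control, with a log2 rank difference of 0.27 (SE 0.26, n = 4 each; exact permutation p = 0.486, adjusted p = 0.741). The one at 60765029 to 60765444 ranked from 36608 to 49013 in cDKO and from 24713 to 57738 in control, a difference of −0.02 (SE 0.29, n = 4 each; exact permutation p = 0.886, adjusted p = 0.975). Both overlapped between genotypes. The region at 60758179 to 60758619 was at its strongest in cDKO without IL-2, at 23061 and 20391, and ranked 64095 and 47436 in cDKO plus IL-2; control libraries lay between 26170 and 49435. The libraries did not separate there for genotype (0.14, SE 0.45; exact permutation p = 0.886) or IL-2 (−0.76, SE 0.33; exact permutation p = 0.2, adjusted p = 0.745). The other Cd28 regions but one, described with the genotype calls, were in 0 to 3 equal-number lists and were not compared.

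At the Ctla4 start, over the promoter printed above, the region at 60908818 to 60909275 held a moderate and even rank. It was 17510 and 16137 in cDKO plus IL-2, 16691 and 15356 in cDKO without IL-2, 15526 and 14316 in control plus IL-2, and 18903 and 9873 in control without IL-2. The groups overlapped in both comparisons. The log2 rank difference was −0.20 for cDKO against control (SE 0.20, n = 4 each; exact permutation p = 0.486, adjusted p = 0.741) and −0.10 for cultures with against without IL-2 (SE 0.21, n = 4 each; exact permutation p = 1, adjusted p = 1). The summits fell between 14 bp before and 56 bp after the gene start, around the higher-coordinate end of the printed window. Fold enrichment was 6.77, 6.46, 6.78 and 6.65 in cDKO libraries and 6.99, 6.13, 6.61 and 7.47 in control libraries, also overlapping.

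The other regions of the Ctla4 body were weaker. The one at 60910859 to 60911122 ranked from 33755 to 40110 in cDKO and from 28538 to 44433 in control, and the groups overlapped. The one at 60911661 to 60911872 ranked 42202 and 39857 in cDKO libraries without IL-2 and did not reach the equal-number list of either cDKO library with IL-2. In control cells it was listed at 48149 in 1 of the 2 libraries with IL-2, and at 50422 and 45191 without IL-2. Its difference with against without IL-2 was −0.46 (SE 0.13, n = 4 each; exact permutation p = 0.0571, adjusted p = 0.534).

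Icos had its stronger regions inside the body rather than at its lower-coordinate end. The region at that end (60960588 to 60961385) ranked 28109 and 24672 in cDKO plus IL-2, 37417 and 19461 in cDKO without IL-2, 24751 and 24227 in control plus IL-2, and 17805 and 34236 in control without IL-2. The pair of libraries without IL-2 spread widely in both genotypes, and the log2 rank difference for genotype was −0.12 (SE 0.28, n = 4 each; exact permutation p = 0.686, adjusted p = 0.867). The strongest region of the body (60990118 to 60990802) ranked 13089 and 11886 in cDKO plus IL-2, 9861 and 9415 in cDKO without IL-2, 16665 and 15866 in control plus IL-2, and 13872 and 11366 in control without IL-2. There the cDKO libraries were ahead within each culture condition, and the libraries with IL-2 were behind within each genotype, but neither contrast separated all 8 libraries (exact permutation p = 0.114 in both). The region at 60977678 to 60978024 ranked from 6409 to 14804 in cDKO and from 12246 to 24216 in control, with overlap (log2 rank difference 0.69, SE 0.34, n = 4 each; exact permutation p = 0.114, adjusted p = 0.39).

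In order of median rank, the Cd28 end came first at 2682, then the Icos body regions at 12488 (60990118) and 13848 (60977678). After them came the Ctla4 start at 15832, the Icos higher-coordinate end (60999560) at 19000 and the Icos lower-coordinate end at 24712. The Cd28 end was ahead of each of the others in 8 of 8 libraries. Neighbours further down were not separated: the stronger Icos body region was ahead of the Ctla4 start in 5 of 8 libraries. The Ctla4 start was ahead of the Icos higher-coordinate end in 5 of 8 and of the Icos lower-coordinate end in 7 of 8. Fold enrichment gave another order for that last pair, with 6.13 to 7.47 at the Ctla4 start and 8.91 to 15.1 at the Icos lower-coordinate end.

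**Figure D2:**
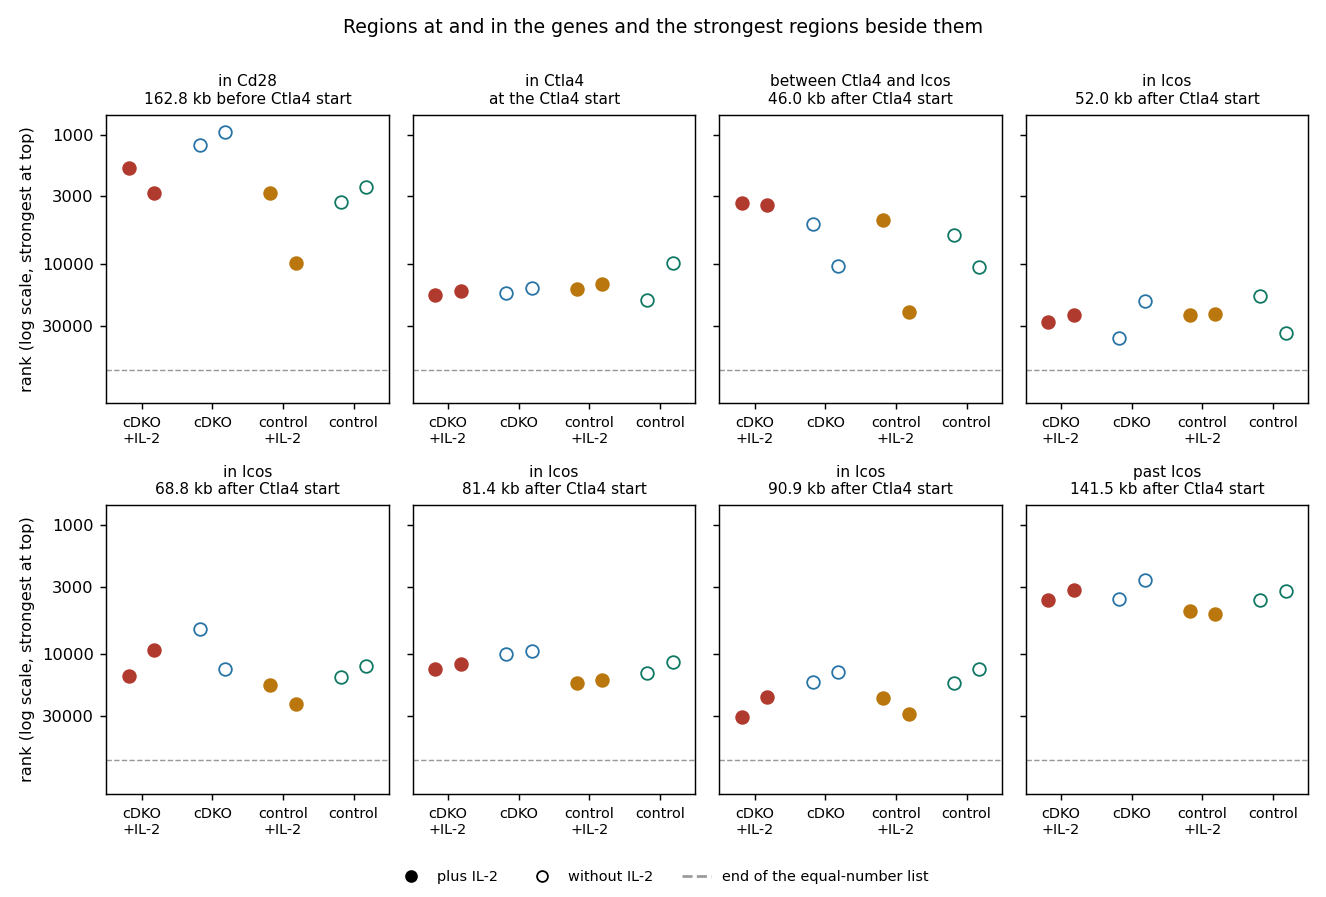
Rank of 8 regions at and in Cd28, Ctla4 and Icos and beside them, on an inverted log axis with the strongest at the top; each point is a library, filled with IL-2 and open without, in 4 groups of 2, and the dashed line ends the equal-number list. The Cd28 end lies highest in cDKO without IL-2, at 1200 and 947, and the Ctla4 start stays between 9873 and 18903.

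Several strong regions lay outside the genes. The region straddling the far edge of the interval (61050183 to 61050869), which starts 49.9 kb past Icos and has its summits beyond the edge, ranked from 2652 to 3817 in cDKO and from 3243 to 4914 in control, and was strong in every library. The region 5.47 kb before Icos (60954695 to 60955307) ranked 3382 and 3511 in cDKO plus IL-2, 4951 and 10337 in cDKO without IL-2, 4599 and 23617 in control plus IL-2, and 5992 and 10546 in control without IL-2. Its groups overlapped, and control plus IL-2 replicate 2 was far behind the rest. A broad region 3.41 kb past the Cd28 body (60776766 to 60777921) ranked from 5559 to 8230 in cDKO and from 7224 to 15300 in control. A region in the body of the lncRNA gene Gm34649, between Ctla4 and Icos (60940795 to 60942126), ranked from 6499 to 8887 in cDKO and from 8274 to 10606 in control, with a log2 rank difference of 0.32 (SE 0.12, n = 4 each; exact permutation p = 0.0571, adjusted p = 0.271). Both pairs of ranges overlapped.

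The first comparison asks how loss of TET1 and TET3 bears on open chromatin, with the 4 cDKO libraries set against the 4 control libraries. A region was called ranked higher or lower in cDKO when all 4 of its cDKO ranks lay ahead of, or behind, all 4 control ranks, and a region missing from an equal-number list was placed one past its end. In the locus 2 of 55 regions ranked higher in cDKO, or 3.64%, against 7.34% of the 64597 regions compared genome-wide. Another 5 ranked lower, or 9.09%, against 7.50% genome-wide, and with counts this small neither share is read as particular to the locus. Of these 5, the regions at 60765808 and 60967968 were in all 4 control lists and in 1 cDKO list. They entered the comparison through the side where they rank ahead, so their p is weak as a test. No region of the genome reached an adjusted p of 0.05 in the exact permutation test with Benjamini-Hochberg adjustment. The smallest p that 4 libraries against 4 allow is 0.0286, reached by all 7 locus regions, at an adjusted p of 0.193; 9584 regions genome-wide had an unadjusted p under 0.05. The median log2 rank difference was −0.02 in the locus and 0.04 over all regions compared.
With single libraries left out, the number ranked higher was 5 without cDKO plus IL-2 replicate 2, 4 without control plus IL-2 replicate 2, and 4 and 6 without control replicates 1 and 2 of the cultures lacking IL-2. Any region separates more easily with a library fewer, and genome-wide shares were not computed for these counts. Within the 2 culture conditions taken separately, 6 regions ranked higher in cDKO in both and 6 ranked lower in both (10.9% each, against 11.5% and 11.2% genome-wide); 2 libraries against 2 allow no p under 0.333. In lists of 32905 peaks the calls at 60765808, 60967968, 60985015 and 61022808 were lost.

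The clearest of them lay 43.3 kb before Cd28 (60702673 to 60703072). It ranked 5785 and 908 in cDKO plus IL-2, 7506 and 3795 in cDKO without IL-2, 13900 and 22334 in control plus IL-2, and 10115 and 17365 in control without IL-2. Every cDKO library was ahead of every control library, by 2.13 in mean log2 rank (SE 0.72, n = 4 each) and by 3.81 when ranked by fold. Fold enrichment was 20.8, 23.5, 20.6 and 22.4 in cDKO libraries, against 16.3, 10.1, 19.6 and 14.7 in control libraries, which did not overlap either. The other region ranked higher, in the Icos body (60985015 to 60985570), was weak throughout. It ranked 38316 and 32152 in cDKO plus IL-2, 28643 and 47620 in cDKO without IL-2, 64825 and 53668 in control plus IL-2, and 52798 and 64969 in control without IL-2, a log2 rank difference of 0.71 (SE 0.18, n = 4 each). Its direction turned, to −0.16, when a peak had to cover 50% of the merged region to count.

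Of the regions ranked lower, one lay in the Ctla4 body, 4.5 kb after the gene start (60913353 to 60913697). It ranked 24705 and 24811 in cDKO plus IL-2, 26914 and 30112 in cDKO without IL-2, 15098 and 17002 in control plus IL-2, and 22754 and 16113 in control without IL-2. The log2 rank difference was −0.60 (SE 0.15, n = 4 each), and the groups lay close, with 24705 in cDKO next to 22754 in control. Its fold enrichment overlapped, at 5.38, 5.15, 5.1 and 4.7 in cDKO libraries and 6.7, 5.31, 5.84 and 5.76 in control libraries, and it was no longer called when peaks were ranked by fold (−0.31).

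In the Cd28 body the region at 60765808 to 60766463 was listed in 1 of 4 cDKO equal-number lists, at 57387 with IL-2. Control libraries had it at 41146 and 35287 with IL-2 and at 52892 and 49841 without. The difference was −0.52 (SE 0.14, n = 4 each), or −1.16 over the full deposited lists, and ranks by fold (−0.39) or 50% cover (−0.35) ended the call. In the Icos body the region at 60967968 to 60968371 was likewise in 1 of 4 cDKO lists, at 59434 with IL-2, and in all 4 control lists, at 24473 and 28741 with IL-2 and 43944 and 39765 without. Its difference was −0.95 (SE 0.20, n = 4 each), and control libraries with IL-2 had the strongest peaks. In both regions 1 filled-in rank stands for the missing cDKO lists, so neither SE rests on 4 observed cDKO ranks.

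A pair of regions past Icos completed the group. The one 22.5 kb past the gene (61022808 to 61023311) ranked 57473 and 49183 in cDKO plus IL-2 and was in neither cDKO list without IL-2. In control cells it ranked 19967 and 16223 with IL-2 and 38764 and 41601 without. The log2 rank difference for genotype was −1.14 (SE 0.35, n = 4 each), and the libraries with IL-2 were ahead within both genotypes. The one 29.6 kb past Icos (61029874 to 61030205) ranked 23213 and 22314 in cDKO plus IL-2, 21472 and 21453 in cDKO without IL-2, 12614 and 18956 in control plus IL-2, and 18034 and 14842 in control without IL-2. That is a difference of −0.47 (SE 0.14, n = 4 each), and ranks by fold ended the call (−0.40).

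**Figure D3:**
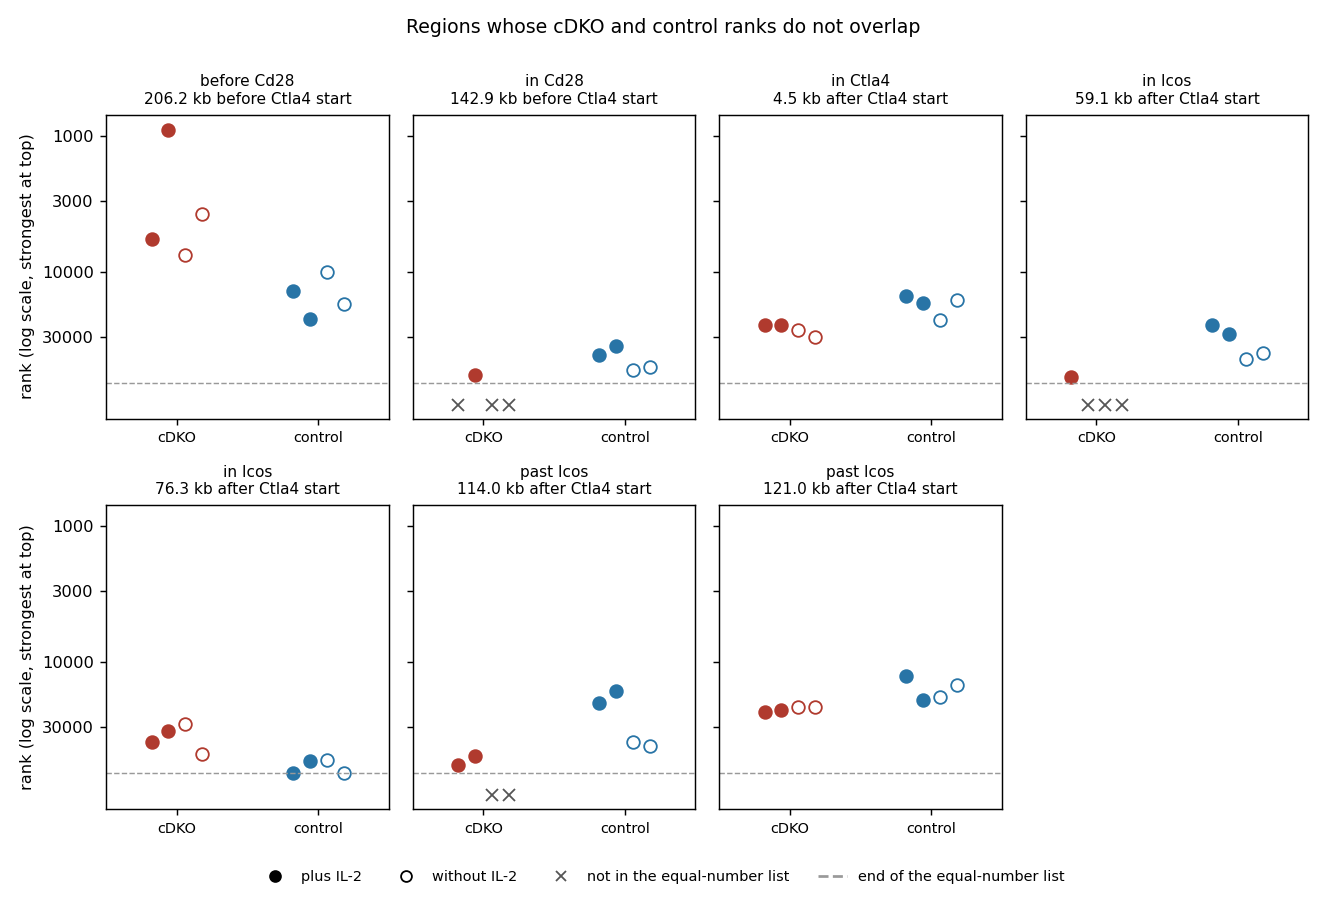
Ranks of the 7 regions whose 4 cDKO libraries, at left, did not overlap the 4 control libraries, at right; the axis is an inverted log scale, points are libraries, filled with IL-2 and open without, and crosses mark libraries whose equal-number list lacks the region. The region before Cd28 stands out at the top with cDKO ranks from 908 to 7506, and 3 of the 5 regions ranked lower are missing from 2 or 3 cDKO lists.

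No locus region was listed in all 4 libraries of 1 genotype and absent from the 4 equal-number lists of the other, a pattern that 1.05% of regions genome-wide showed for cDKO and 1.66% for control. A weak region of the Icos body (60974138 to 60974484) ranked 45688 and 40750 in cDKO without IL-2 and reached no other equal-number list, too few to enter the comparison. Control plus IL-2 replicate 2 did not list it, and the others had it at 69666 or beyond in their deposited lists. Opposite separation in the 2 culture conditions was seen in 2 of 55 regions, or 3.64%, against 2.94% genome-wide.

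The 40 compared regions with no call in either comparison lay in every stretch of the locus, 20 of them between Cd28 and Ctla4. Their log2 rank differences ran from −0.83 to 1.33 for cDKO against control and from −0.97 to 0.84 for cultures with against without IL-2, the Cd28 end giving the 1.33 and the −0.97.

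The second comparison set the 4 libraries with added IL-2, the cytokine that signals through STAT5, against the 4 without. In the locus 4 of 55 regions ranked higher with IL-2, or 7.27%, against 3.36% of the regions compared genome-wide. As many, 4, ranked lower with IL-2, or 7.27%, against 3.31% genome-wide. The one at 61016576 entered the comparison only through the libraries without IL-2, which fixed its call, and 3 remain without that one. The one at 60813478 was in all 4 lists without IL-2 and in 1 with it. Of those ranked higher, the one at 60974989 was in all 4 lists with IL-2 and in 1 without. Both entered through the side where they rank ahead, so their p is weak as a test. Each share was above the background, rests on 4 regions or fewer and was not tested as a difference. The exact permutation p was 0.0286 for each, with an adjusted p of 0.428, the smallest of the genome; no region reached 0.05 adjusted, and 4308 did unadjusted. The median log2 rank difference, positive where ranked ahead with IL-2, was −0.00 in the locus and −0.01 over all regions.
Leaving out cDKO plus IL-2 replicate 1 gave 7 ranked higher and 7 lower, and leaving out control replicate 1 of the cultures lacking IL-2 gave 10 ranked lower. Here too separation is easier with a library fewer, and the genome-wide shares were not computed. When peaks were ranked by fold enrichment in place of −log10 p, 0 regions ranked higher with IL-2. In lists of 32905 peaks the calls at 60813478, 60974989 and 61016576 were lost. Within the genotypes taken separately, 8 regions ranked higher in both and 7 lower in both (14.5% and 12.7%, against 6.59% and 7.09% genome-wide), and 1 separated in opposite directions in the genotypes (1.82%, against 3.63%). The 2 calls need opposite orders of the same groups, so no region can be called in both comparisons. The lack of shared calls is therefore no finding.

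Of the 4 regions ranked higher with IL-2, 3 lay together in the body of the lncRNA gene Gm38137 (60860958 to 60894365), upstream of Ctla4, where 9 regions were compared. The strongest call (60880021 to 60880741), 28.3 kb from Ctla4, ranked 11551 and 14874 in cDKO and 11558 and 10987 in control with IL-2, against 27527 and 22819 in cDKO and 20278 and 19924 in control without it. The groups were well apart, with a log2 rank difference of 0.89 (SE 0.15, n = 4 each). By fold it was 7.15, 6.24, 6.71 and 6.02 with IL-2 and 6.25, 6.35, 6.39 and 6.08 without, which overlapped. The region 19.9 kb from Ctla4 (60888689 to 60889164) ranked 24731 and 27270 in cDKO and 30262 and 24259 in control with IL-2, against 37834 and 56950 in cDKO and 47437 and 48152 in control without it (0.83, SE 0.14, n = 4 each). The broad region 14.8 kb from Ctla4 (60893118 to 60894265) ranked 16240 and 13239 in cDKO and 15507 and 11649 in control with IL-2, against 20254 and 16892 in cDKO and 23613 and 18157 in control without it (0.48, SE 0.15, n = 4 each). Its groups were close, 16240 with IL-2 beside 16892 without.

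Next to these, the region at 60874990 to 60875642 was ahead with IL-2 within each genotype but overlapped over all 8 libraries. It ranked 23403 and 30204 in cDKO and 26588 and 17414 in control with IL-2, against 57506 and 52489 in cDKO and 39811 and 26698 in control without it. The region beside it, at 60873179 to 60873594, went the other way within each genotype. It ranked 33284 and 44285 in cDKO and 47401 in 1 control library with IL-2, the other control library lacking it, against 18136 and 17607 in cDKO and 41251 and 36205 in control without IL-2 (−0.82, SE 0.38, n = 4 each; exact permutation p = 0.114, adjusted p = 0.665). The fourth region ranked higher lay in the Icos body (60974989 to 60975526). With IL-2 it ranked 37746 and 46110 in cDKO and 35184 and 17974 in control, and without IL-2 it was in neither cDKO list and in 1 of 2 control lists, at 46113. The call turned on 46110 with IL-2 beside 46113 without, which are all but tied (0.89, SE 0.32, n = 4 each, or 1.47 over the full deposited lists). It was lost with 50% cover (0.69). Ranked by fold, the differences of the 4 regions were 0.29, 0.18, 0.15 and 0.54, in the order described, and none was called.

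The regions ranked lower with IL-2 were spread over the locus. The strongest lay 20.4 kb past Cd28 in the body of the lncRNA gene 2310016D23Rik (60793778 to 60794097). It ranked 17758 and 13038 in cDKO and 14336 and 21983 in control with IL-2, against 9015 and 7782 in cDKO and 12590 and 8939 in control without it. The difference was −0.80 (SE 0.22, n = 4 each), and ranks by fold kept the direction, at −2.58, without the separation. At the higher-coordinate end of Icos (60999560 to 61000203) the ranks were 30330 and 21448 in cDKO and 21643 and 29093 in control with IL-2, against 16276 and 13774 in cDKO and 16551 and 12890 in control without it. These groups were well apart (−0.77, SE 0.16, n = 4 each), and their fold enrichment was 8.22, 10.4, 9.86 and 6.22 with IL-2, against 11.4, 12.0, 11.3 and 11.0 without.

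The region 16.3 kb past Icos (61016576 to 61017078) was in none of the 4 equal-number lists with IL-2. Without IL-2 it ranked 50130 and 50678 in cDKO and 41484 and 41907 in control. The difference, −0.52, is set by the rank given to the missing libraries and was −1.10 over the full deposited lists. It was the 1 locus region listed in every library of one culture condition and absent from the other. Genome-wide, 0.341% of regions showed this for cultures without IL-2 and 0.517% for cultures with it, where the locus had 0. Being in only 4 lists, all without IL-2, it passed the filter through the group where it is high, so its call and its p are no test. It could not be compared once any library without IL-2 was left out. The region 40.1 kb past Cd28 (60813478 to 60813727) was in 1 equal-number list with IL-2, at 61985 in cDKO. Without IL-2 it ranked 36099 and 46548 in cDKO and 55899 and 54793 in control (−0.44, SE 0.15, n = 4 each, −0.98 over the full deposited lists and −0.88 by fold). The −0.44 and its SE depend on the rank given to the missing libraries with IL-2. Neither region ranked ahead of 36099 in any library.

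**Figure D4:**
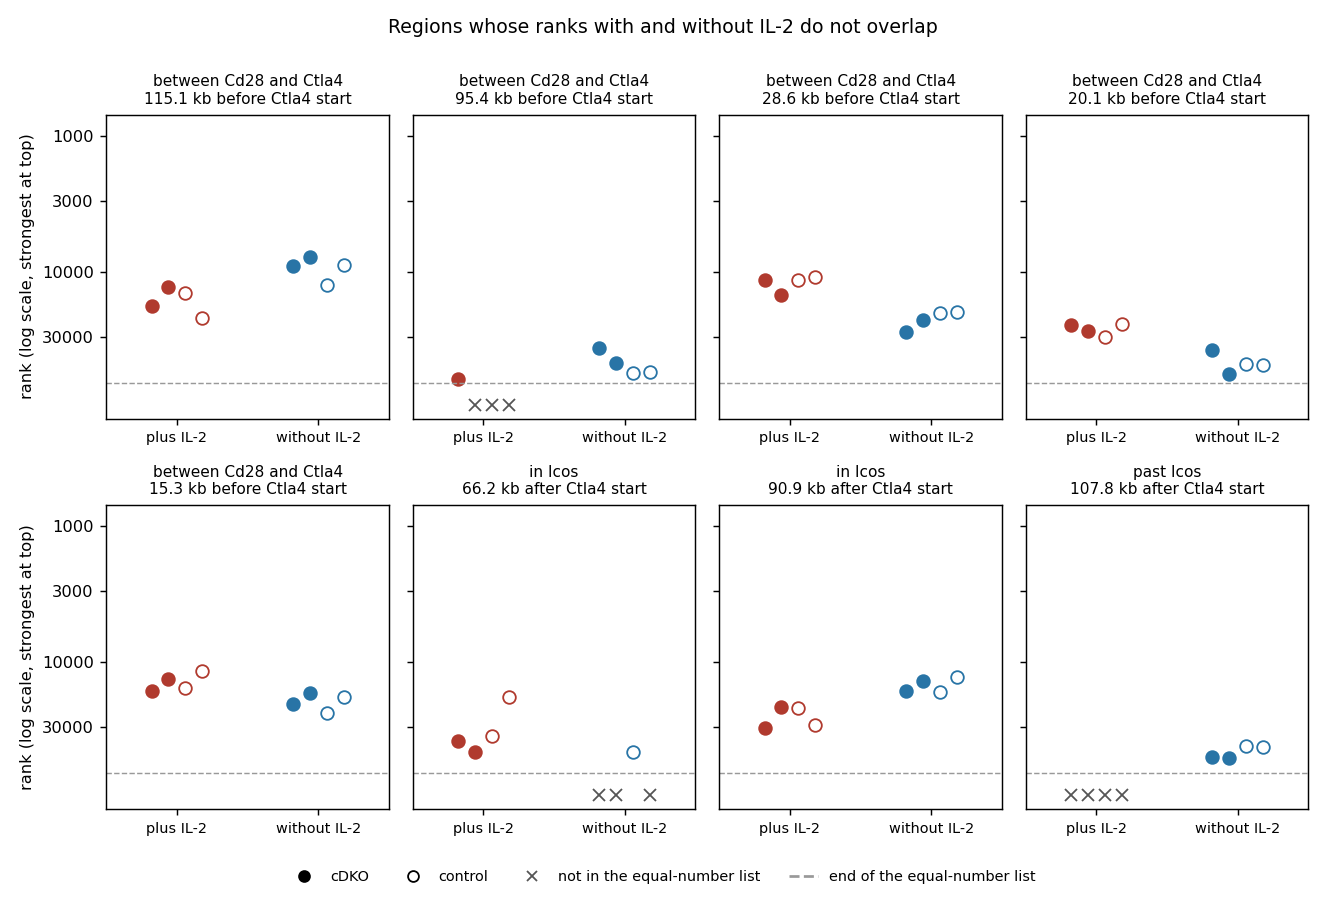
Ranks of the 8 regions whose 4 libraries with IL-2, at left, did not overlap the 4 without, at right; the axis is an inverted log scale, points are libraries, filled for cDKO and open for control, and crosses mark lists that lack the region. Of the regions shown, the 3 closest before Ctla4 lie higher with IL-2, and the higher-coordinate end of Icos, 90.9 kb after the Ctla4 start, lies lower.

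Genes acting with the 3 receptors, and genes for related ligands and receptors, were examined over their bodies and 10 kb to either side. Their counts stand against genome-wide shares of 7.34% higher and 7.50% lower in cDKO, and 3.36% higher and 3.31% lower with IL-2. The 6 genes listed as costimulation ligands and their relatives were Cd80, Cd86, Icosl, Cd274, Pdcd1lg2 and Cd276. Of their 37 regions, 2 ranked higher and 3 lower in cDKO (5.41% and 8.11%), and 1 ranked higher and 0 lower with IL-2 (2.70% and 0%). Cd86 had 0 of 11 regions called in either comparison, and Icosl, the ICOS ligand, had 1 of 5 higher and 1 lower in cDKO. The 6 genes for related receptors had 3 of 39 higher and 3 lower in cDKO (7.69% each), and 0 higher and 1 lower with IL-2 (0% and 2.56%). Pdcd1, encoding the inhibitory receptor PD-1, had 0 of 6 called in both comparisons. Lag3, the gene for another inhibitory receptor, lies on chromosome 6 and had 2 of 7 higher in cDKO. Whether other regions of that chromosome lean the same way was not examined here.

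The 23 genes for proximal signalling held 212 compared regions, of which 12 ranked higher in cDKO and 27 lower (5.66% and 12.7%). Among them, Prkcq, encoding the kinase that links CD28 to NF-κB, had 1 of 22 regions higher and 4 lower, and Cblb, a ubiquitin ligase that opposes CD28 signals, had 1 of 20 higher and 4 lower. With IL-2, 11 of the 212 ranked higher and 5 lower (5.19% and 2.36%). Pik3r1, encoding a regulatory subunit of the PI3-kinase recruited by CD28 and ICOS, had 3 of 13 higher and 1 lower with IL-2. The 7 matched genes for receptor turnover had 2 of 35 higher and 3 lower in cDKO (5.71% and 8.57%), and 1 higher and 1 lower with IL-2 (2.86% each). The 10 genes for nuclear effectors had 8 of 105 higher and 10 lower in cDKO (7.62% and 9.52%), and 3 higher and 0 lower with IL-2 (2.86% and 0%); Foxp3, the regulatory T cell factor, had 0 of 5 called in either. The median log2 rank difference of the 5 lists lay between −0.03 and 0.14 for genotype, against 0.04 over all regions, and between −0.08 and 0.06 for IL-2, against −0.01. No region in any list passed an adjusted p of 0.05.

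Across the 8 libraries, ranks at the gene ends were compared with those of 11794 genes by Pearson's r of log2 rank, as a description. The pattern of the Cd28 end was most like those of Trim25 (r = 0.990), Srrm3 (0.969) and Glipr1 (0.967). The Ctla4 start was most like Mettl22 (0.952), Umps (0.942) and Map1lc3b (0.928), and the Icos lower-coordinate end most like Pif1 (0.926), Thpo (0.889) and Bpnt2 (0.887). All points share their libraries, and so many genes give high values over 8 points.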

How the data were processed

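The 8 peak lists hold, per the file headers' narrowPeak layout, a score, a fold enrichment (a ratio), −log10 of the p-value, −log10 of the q-value and a summit position for each peak, as deposited by the authors for each library, with no pooling. The submitters' processing notes name MACS2 2.2.7.1, the peak caller, with Bowtie2 2.4.1, SAMtools 1.3.1, Trimmomatic 0.39, HOMER 4.11.1 and the build GRCm38/mm10. Parameters and any shift of reads for the transposase offset were not given in the sources used here. The largest q-value listed is 0.05. Groups follow the sample titles. The other label fields are displaced (the genotype stands under cell type, where it matches the titles) and do not give IL-2, which rests on the titles alone. The design text calls the replicates biological.

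The 65811 strongest peaks of each list by −log10 p were ranked and peaks overlapping by at least 1 bp merged. Regions in at least 4 of 8 lists were compared, 4 libraries against 4, by separation of ranks and by a two-sided exact permutation test of the rank sum over 70 relabellings, adjusted by Benjamini-Hochberg over 64597 regions. Standard errors are of the difference of mean log2 ranks. Where lists lack a region, the same filled-in rank enters for each, so the standard error there is partly set by that constant. Named regions are those called, those within 1 kb of a gene end or in a body without a given start, the strongest of each stretch, those separated in opposite directions in the 2 arms, and those listed in 1 group only; the regions at 60910859, 60911661, 60940795, 60874990 and 60873179 were chosen after their values were seen. Members and lists were chosen with earlier results of these data known. Scripts ran in Python 3.11.15 with numpy 2.4.6, pandas 2.3.3, scipy 1.17.1 and matplotlib 3.10.9, and were tested on simulated data. Gene bodies came from RefSeq for GRCm38. Merging can join neighbouring peaks, and −log10 p grows with read depth as well as enrichment. Libraries were not paired by replicate number. Alternatives were deposited lists, lists of 32905 peaks, −log10 q of at least 2, presence alone, ranks by fold, summits within 100 bp, 50% cover, 10 kb flanks, a replicate block and each library left out; separation within both arms was added after seeing the data.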

Additional observations from a re-analysis of the deposited data

Results flagged for a closer look

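In sets of 4 libraries, 4 log2 ranks held 1 library far from the other 3, with the gap given as a share of the whole range; 92 such sets were checked, and chance alone gives about 1 in 20. All 4 were among the libraries with IL-2. The share was 0.892 in the region 60859940 to 60860921, where cDKO plus IL-2 replicate 1 ranked ahead. It was 0.833 in the region 60880021 to 60880741, where cDKO plus IL-2 replicate 2 ranked behind, and 0.842 in the region 60954695 to 60955307, where control plus IL-2 replicate 2 ranked behind. It was 0.856 in the region at the Icos lower-coordinate end, where cDKO plus IL-2 replicate 1 ranked behind.

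In 3 regions the libraries of a comparison separated in opposite directions in the 2 arms, and these differences were not tested. In the Cd28 body (60758179 to 60758619), cDKO ranked 64095 and 47436 with IL-2 and control ranked 44200 and 36763, while without IL-2 cDKO ranked 23061 and 20391 and control 49435 and 26170. The genotype difference was −0.45 with IL-2 and 0.73 without, apart by 1.18. The region 39.0 kb past Icos (61039354 to 61039796) went the other way, with cDKO at 6560 and 4212 and control at 7349 and 16319 with IL-2, and cDKO at 15485 and 9984 and control at 7158 and 8597 without. The differences of 1.06 with IL-2 and −0.66 without were apart by −1.72. For IL-2, the region 60859940 to 60860921 had a difference of 0.48 in cDKO and −0.35 in control, apart by 0.83. Over the locus, 2 of 55 regions separated in opposite directions for genotype (3.64%, against 2.94% genome-wide) and 1 for IL-2 (1.82%, against 3.63%).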

How the results depend on the processing

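Against 2 regions ranked higher and 5 lower in cDKO, and 4 higher and 4 lower with IL-2, counts moved under several settings. Lists of 32905 peaks, with 30 locus regions compared, gave 1 and 2 for genotype and 2 lower with IL-2. Genome-wide shares were then 6.69% and 6.65% for genotype and 3.18% for lower with IL-2. Gene bodies with 10 kb gave 1 and 3 for genotype and 1 and 1 for IL-2. The calls are those of the main setting, with genome-wide shares of 7.34% and 7.50% for genotype and 3.36% and 3.31% for IL-2. How many locus regions were compared in these windows was not counted, so no locus share is given. Presence alone gave 0 and 0 for genotype and 0 and 1 for IL-2, against 1.05% and 1.66%, and 0.517% and 0.341%, genome-wide. Ranks by fold gave 2 lower in cDKO and 0 higher with IL-2. The deposited lists, with 71 locus regions compared, gave 4 higher in cDKO, against 7.38% genome-wide. A −log10 q of at least 2 also gave 4 higher in cDKO, and 50% cover gave 1. No genome-wide share was computed for ranks by fold, −log10 q of at least 2 or 50% cover. Separation within both arms, added later, gave 6 and 6 for genotype and 8 and 7 for IL-2. Genome-wide shares were 11.5% and 11.2% for genotype and 6.59% and 7.09% for IL-2. With the replicate number as a block, counts were 8 higher in cDKO, and 10 higher and 11 lower with IL-2; genome-wide shares were then 15.7% for higher in cDKO and 11.0% and 11.7% for IL-2, and the numbers are shared labels only: deviations of same-numbered libraries correlated at 0.38 between the control groups and from −0.19 to 0.04 in the other pairs. With libraries left out, genotype counts ran from 2 to 6 higher and 5 to 7 lower, and IL-2 counts from 4 to 7 higher and 3 to 10 lower. Separation is then easier for any region, and no genome-wide share was computed. The mean number of locus regions listed differed by −3.5 (cDKO minus control) and −0.5 (with IL-2 minus without). The cDKO difference was −6.5 with 50% cover and 0.25 with fold ranks, and −4.67 to −2.33 with libraries left out; the IL-2 difference ran from −2.33 to 0.667. The Icos body region at 60985015 turned to −0.16 with 50% cover. The cause of these changes was not tested. The 15 called regions all kept their call in the deposited lists and with −log10 q of at least 2, while 8 did in lists of 32905 peaks, 7 by fold, 14 with summits and 12 with 50% cover. Depth is unknown, so no floor can be given for a region that is not listed, and 2 libraries a group leave each arm without a test.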
